A study of Mus musculus with 51 samples.

Results

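Olfr140 and Olfr536 were the odorant receptor (OR) genes with the highest mean share of OR reads in pS6-IP-Seq libraries of mouse olfactory mucosa. They are 2 of the 1117 intact OR genes in the deposited count tables, and they were chosen by that level, so their shares and ranks are given here as a description without a test. Changes with odor exposure were not used in the choice and were tested. Over the 51 libraries, Olfr140 held 2.81% ± 1.41 (SD, n = 51) of the OR reads and Olfr536 held 2.03% ± 0.714 (SD, n = 51), against a median of 0.0432% over all ORs.

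All mice were C57BL/6J juveniles about 3 weeks old, littermates of mixed sex, exposed for 1 hr to 10 μL of odor or diluent. The 10 odor groups of 3 libraries (30 libraries) were each set against the 3 diluent-exposed control libraries of their experiment (21 control libraries in 7 groups). The odors were 100 mM CPD (cyclopentadecanone, a macrocyclic musk), 10 mM and 100 μM MTMT ((methylthio)methanethiol, a compound of male mouse urine), 1% β-caryophyllene, 100% (E)-β-farnesene, 1% 2,5-DMP (2,5-dimethylpyrazine), 77% DHB (dehydro-exo-brevicomin), and SBT (2-sec-butyl-4,5-dihydrothiazole) at 0.01%, 1% and 100%. Farnesene, 2,5-DMP and 100 μM MTMT shared their controls, and 1% and 100% SBT shared theirs. The control labels do not name the diluent, which was water or ethanol. By the study's methods, MTMT and CPD were in ethanol and the other odorants in water unless stated otherwise. Thus 2,5-DMP and 100 μM MTMT shared controls although their diluents differed. Odor and diluent cannot be told apart in at least 1 of those comparisons. The libraries carried 9 label prefixes and held 27301 to 160001 OR reads each (median 93870). The tables hold OR genes only, so neuronal and other cell type markers could not be checked.

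Each olfactory sensory neuron expresses a single OR allele, chosen from a large family that lies in clusters along many chromosomes. When an odor activates a neuron, ribosomal protein S6 becomes phosphorylated, and precipitating ribosomes that carry phosphorylated S6 enriches the mRNA of active neurons, including that of the OR they express. In whole mucosa the read share of an OR therefore depends on how many neurons chose it, on how active they were and on the RNA per neuron, and fewer neurons of a type and less RNA per neuron cannot be told apart.

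Both genes are encoded on the minus strand (GRCm38, GENCODE M21). Olfr140 (ENSMUSG00000075068) spans chr2:90049380-90063594 with its coding sequence of 906 bases at chr2:90051417-90052322. Olfr536 (ENSMUSG00000052508) spans chr7:140500849-140507396 with its coding sequence of 921 bases at chr7:140503537-140504457. Their coding sequences were 56.46% identical. The closest coding relative of Olfr140 among all ORs was its neighbour Olfr1264, at 80.63% identity. By contrast, Olfr536 had 2 near copies in its cluster, with other ORs between. They were Olfr530 at 93.7%, 124518 bases away, and Olfr533 at 89.79%, 32721 bases away. Reads can be divided among such copies when they are counted. Of the 50-base stretches of the transcripts of each gene, 0.56% of those of Olfr140 (20 of 3574) and 3.2% of those of Olfr536 (140 of 4376) also occurred in another OR, which were Olfr1264 and Olfr1265 for the former and Olfr530 and Olfr533 for the latter. The longest run of such stretches is shown because each 50-base read inside it fits Olfr536 and also Olfr530, Olfr533 or both. It is 92 coding bases long and lies at chr7:140504063-140504154.
Shared run of Olfr536: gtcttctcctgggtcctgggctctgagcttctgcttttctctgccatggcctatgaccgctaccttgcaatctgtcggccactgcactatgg

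The 250 bases before the annotated transcription start of each gene are shown next, since ORs are regulated through short promoters that often hold homeodomain and Olf/EBF sites. They lie at chr2:90063595-90063844 for Olfr140 and chr7:140507397-140507646 for Olfr536, both on the minus strand, and capitals mark matches to the Olf/EBF core CCCNNGGG on either strand.
Olfr140 upstream: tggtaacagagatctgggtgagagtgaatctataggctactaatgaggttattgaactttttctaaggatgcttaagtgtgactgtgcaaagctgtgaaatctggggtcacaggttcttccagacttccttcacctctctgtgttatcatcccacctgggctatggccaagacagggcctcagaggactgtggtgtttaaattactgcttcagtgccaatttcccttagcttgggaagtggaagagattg
Olfr536 upstream: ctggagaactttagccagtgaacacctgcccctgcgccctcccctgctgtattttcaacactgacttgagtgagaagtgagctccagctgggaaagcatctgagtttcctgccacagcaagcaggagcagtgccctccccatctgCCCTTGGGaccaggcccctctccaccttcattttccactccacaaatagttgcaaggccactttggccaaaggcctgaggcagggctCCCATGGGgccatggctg
The Olfr536 window held 2 such matches, starting 105 and 18 bases before the start, and the Olfr140 window none. Of the 1043 ORs with an annotated start before their coding sequence, 14.38% had a match to CCCNNGGG in the same window. Neither gene had the homeodomain cores TAATTA, found in 23.2% of those windows, or TAATTG, found in 30.97%. The GC content was 45.6% for Olfr140 and 57.6% for Olfr536, against a median of 37.6% over the ORs. A match or its absence describes these letters alone.

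Together both receptors took 2.55% to 11.4% of the OR reads of a library (median 4.72%), whereas an even split over 1117 genes would give each OR 0.0895%. Olfr140 ranked first in 29 of 51 libraries and second in 9, and its lowest rank was 12. Olfr536 ranked first in 12 libraries and second in 20, and its lowest rank was 16. In the remaining 10 libraries another OR led. Olfr743 led in 4 of them and Olfr1384 in 3. Olfr727 led in 1 library of 100% SBT with 3.19%, Olfr541 in 1 library of 10 mM MTMT with 9.79%, and Olfr545 in 1 library of 1% SBT with 14.4%. The leads of Olfr541 and Olfr545 belonged to single libraries. Olfr541 held 0.257% and 0.124% in the other libraries of its group, and Olfr545 held 0.336% and 0.0377% in the others of its group.

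The next 5 ORs by mean share were Olfr743 (1.46%), Olfr727 (1.12%), Olfr1384 (1.09%), Olfr740 (1.00%) and Olfr166 (0.893%). Longer transcripts yield more reads, so levels of different genes were compared per kb of annotated exon length. That length was 3574 bases for Olfr140 and 4284 for Olfr536, above the median of 2936 over the ORs. Per kb, Olfr140 stayed first with a mean share of 2.39%, but Olfr743 came second with 2.01% and Olfr536 next with 1.44%, followed by Olfr727 at 1.30%, Olfr449 at 1.17%, Olfr742 at 1.09% and Olfr726 at 1.05%. On that scale Olfr140 led in 24 libraries, Olfr743 in 13, Olfr449 in 6, Olfr727 in 2, and Olfr536, Olfr541, Olfr545, Olfr168, Olfr726 and Olfr1395 in 1 each. The second place of Olfr536 by read share was thus not kept once length was taken into account.

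**Figure D1:**
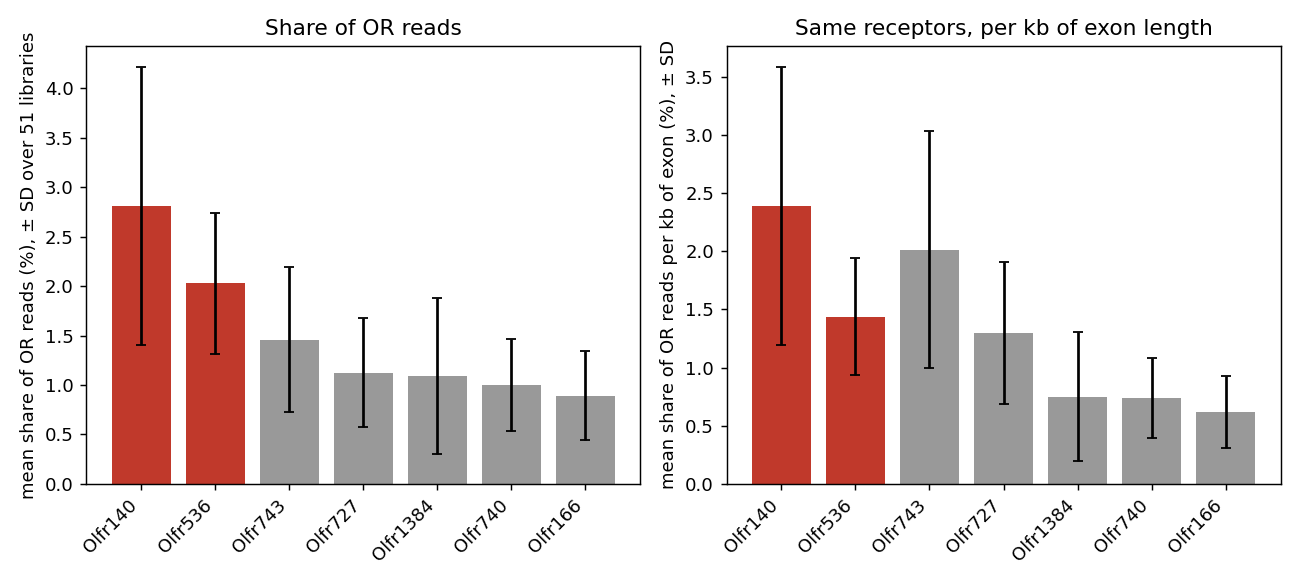
Mean share of OR reads over 51 libraries for the 7 ORs with the highest share (left, in percent) and the same receptors per kb of exon length (right, in percent), with SD as error bars and Olfr140 and Olfr536 in red. Olfr140 is highest on both scales, at 2.81% and 2.39%, whereas Olfr743 stands above Olfr536 per kb.

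The share of each receptor varied widely between libraries. Olfr140 ranged 7.45-fold, from 0.921% (1030 of 111854 OR reads, 95% Wilson interval 0.867 to 0.979%) in replicate 2 of 100 μM MTMT to 6.86% (6856 of 99952, 6.70 to 7.02%) in replicate 2 of β-caryophyllene. Olfr536 ranged 6.84-fold, from 0.678% (450 of 66366, 0.618 to 0.743%) in replicate 2 of 1% SBT to 4.64% (3277 of 70658, 4.49 to 4.80%) in control replicate 2 of the β-caryophyllene experiment. Counting error, the only error these intervals cover, was small beside that spread. Within groups, the pooled SD of the log2 share (5 added per 100000 OR reads) was 0.473 for Olfr140 and 0.409 for Olfr536, against a median of 0.402 over the 100 most abundant ORs. Both receptors therefore varied between libraries of a group by a similar amount to other abundant ORs.

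How much of the spread of Olfr140 lay between experiments was not estimated. Olfr140 was highest in the β-caryophyllene experiment, with 4.72%, 6.74% and 5.82% in the controls and 5.48%, 6.86% and 4.96% after the odor. All 6 libraries stood above every other library but 1. That exception was control replicate 3 of the DHB experiment, with 5.50%, beside 3.41% and 3.05% in its other controls. The controls of 1% and 100% SBT held 3.28%, 3.53% and 3.45%. The CPD controls held 3.15%, 2.92% and 2.24%, and those of 10 mM MTMT 2.70%, 3.76% and 1.72%. Controls of 0.01% SBT held 1.25%, 3.07% and 3.24%. The lowest control group was that of farnesene, 2,5-DMP and 100 μM MTMT, with 2.74%, 1.30% and 2.12%. When the 17 groups were ordered by mean, neighbouring groups overlapped in their ranges with a single exception, between the controls of 1% and 100% SBT and those of CPD.

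Across the 7 control groups, the fitted levels of Olfr140 spanned 1.56 on the log2 scale, against a median span of 0.99 over the ORs tested. The quasi-likelihood F-test of edgeR gave an adjusted p of 0.0654 over 1089 ORs, of which 28 (2.57%) passed. The adjusted p was 0.00493 with the likelihood ratio test, 0.0303 without control replicate 1 of the farnesene experiment, 0.0435 without control replicate 1 of 0.01% SBT and 0.0481 without control replicate 2 of 10 mM MTMT. Leaving out any other control library kept it above 0.05, up to 0.278 without control replicate 2 of β-caryophyllene and 0.186 without its replicate 3, so the call depended on single libraries and on the test. Each β-caryophyllene library had the prefix 4258, which no other experiment used, so experiment and prefix cannot be told apart here. For Olfr536 the fitted span was 0.97 with an adjusted p of 0.645.

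Olfr536 was steadier between control groups. Its controls held 1.57%, 1.89% and 2.49% for CPD, 2.15%, 1.62% and 1.84% for 10 mM MTMT, and 2.00%, 2.30% and 2.68% for the farnesene experiment. Those of DHB held 2.30%, 2.00% and 1.80%, those of 0.01% SBT 2.10%, 1.30% and 1.02%, and those of 1% and 100% SBT 2.16%, 1.46% and 2.06%. The β-caryophyllene controls, with 1.68%, 4.64% and 1.86%, held the only control library above 2.68%. In the order of the 17 group means, from 3.57% at 100% SBT to 1.21% at 1% SBT, every group overlapped its neighbours in range.

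Libraries that share a replicate number were low together for Olfr140 in most experiments. In the experiment with 4 groups, replicate 2 was lowest in all of them, with 1.30% in the control, 1.13% after farnesene, 1.26% after 2,5-DMP and 0.921% after 100 μM MTMT, whereas the other libraries of those groups held 1.92% to 2.74%. The same number was lowest in every group of its experiment in 5 of 7 experiments for Olfr140 and in 3 of 7 for Olfr536. How often such agreement arises by chance was not tested, and the same count was not made over all ORs. Same-numbered odor and control libraries also deviated together over 671 to 887 ORs in 7 of 10 comparisons. Agreement by number was thus not limited to these receptors. In the CPD and 10 mM MTMT experiments the number lowest for Olfr140 was 3, the only one with prefix 3134. Number and prefix cannot be told apart there. Odor and diluent mice were litter matched in the study's design, but the labels do not say that a number marks a litter.

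**Figure D2:**
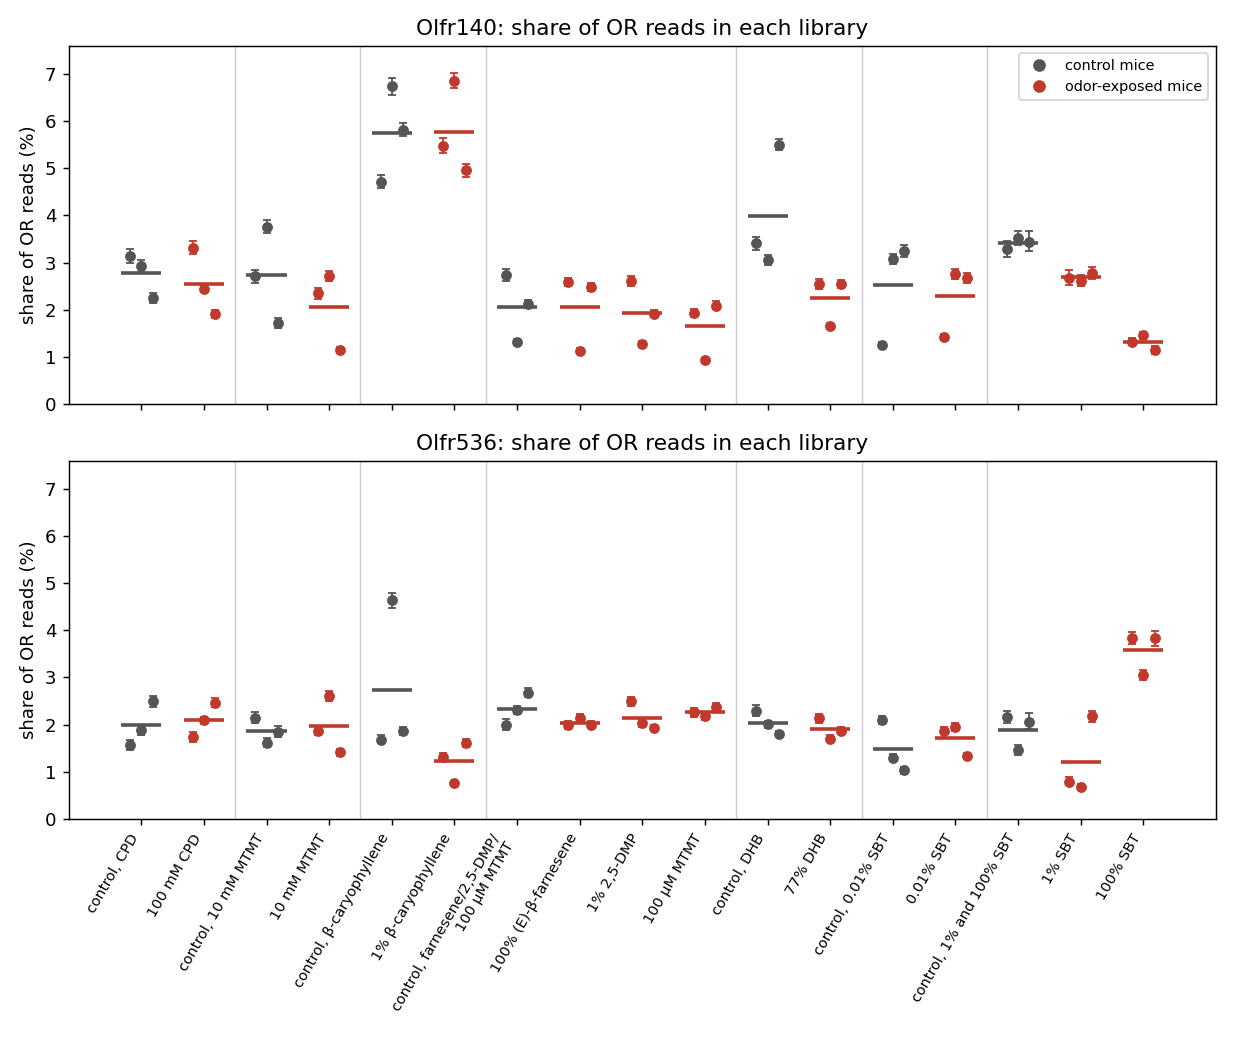
Share of OR reads (percent) of Olfr140 (top) and Olfr536 (bottom) in each of the 51 libraries, by group and in order of replicate number, with controls in gray, odor groups in red, 95% Wilson intervals as error bars and group means as horizontal lines. The β-caryophyllene experiment stands highest for Olfr140, at 4.72% to 6.86%, and 100% SBT is the group with the lowest mean for Olfr140 and the highest for Olfr536.

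Exposure to 100% SBT, the undiluted urinary thiazoline, was followed by opposite changes of both receptors. Olfr140 held 1.32%, 1.46% and 1.15% of OR reads after SBT, against 3.28%, 3.53% and 3.45% in the controls. Olfr536 held 3.84%, 3.05% and 3.83% after SBT, against 2.16%, 1.46% and 2.06%. For both receptors every exposed library lay outside the range of the controls, Olfr140 below and Olfr536 above. The exact permutation test of these shares gave p = 0.1 for each, the smallest that 3 against 3 libraries allow. The share of all ORs without overlap was not counted, here or for the other odors. Olfr140 passed from first place among ORs by mean share to 7th, and Olfr536 passed from second to first. The mean share of Olfr140 fell by 2.11 percentage points, the most of any OR. A fall in points depends on the starting level, for which Olfr140 was chosen.

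In the edgeR fit over 1050 ORs, Olfr140 fell by 0.99 on the log2 scale (SE 0.20, adjusted p = 0.00505) and Olfr536 rose by 1.31 (SE 0.22, adjusted p = 0.00118). At that dose 111 ORs were called higher, 10.6% of those tested, and 8 lower, 0.762% of those tested. The 111 ORs together held 40.9% to 44.3% of the OR reads after SBT and 13.9% to 15.1% in the controls, values that depend on the same contrast, and their part in the fall of Olfr140 was not tested. Shares add up to a fixed total, so the scale mattered. Without TMM factors, on library totals alone, the median change over all ORs moved from -0.08 to -0.46, Olfr140 fell by 1.39, Olfr536 rose by 0.92, and 84 ORs were called higher and 39 lower. Relative to that median, Olfr140 stood at -0.91 with TMM and -0.92 without, and Olfr536 at 1.38 under both. Both directions also held within each label prefix. In SerC the log2 share differed from the controls by -1.30 for Olfr140 and by 0.95 for Olfr536, and in SerD, with 1 library a group, by -1.59 and 0.89. The call for Olfr140 was lost in a single fit of all 51 libraries (log2 fold change -0.95, adjusted p = 0.0924).

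The SBT doses showed where in the range these differences lay. In the 1% SBT libraries Olfr140 held 2.68%, 2.61% and 2.78%, between the ranges of the controls and of 100% SBT without overlap, but the fitted change of -0.21 (SE 0.41, adjusted p = 0.994) did not pass the test, and 0.863% of ORs did. Olfr536 held 0.787%, 0.678% and 2.17% there, with 2 libraries below every control and the other one just above them. In the first of these libraries Olfr545 took 14.4% of the OR reads, and its part in the low share of Olfr536 was not tested. At 0.01% SBT both receptors overlapped their controls, with Olfr140 at 1.42%, 2.76% and 2.67% and Olfr536 at 1.87%, 1.96% and 1.33%, and 0.466% of ORs were called.

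Compared directly, Olfr536 was higher at 100% than at 1% SBT by 1.83 on the log2 scale (SE 0.43, adjusted p = 0.0106), in a contrast in which 7.15% of 1063 ORs were called higher and 0.376% lower. Olfr140 was lower by 0.76 in the same contrast (-0.76, SE 0.31), which did not pass the test (adjusted p = 0.206). Between 1% and 0.01% SBT, tested as a difference of odor effects, the estimates were -0.09 (SE 0.58) for Olfr140 and -0.73 (SE 0.62) for Olfr536, the latter -0.40 without replicate 2 of 1% SBT and -1.50 without its replicate 3, and 0% of 1082 ORs were called by edgeR (48 at an unadjusted p under 0.05, 1 by the likelihood ratio test). Between 10 mM and 100 μM MTMT they were 0.26 (SE 0.63) and 0.46 (SE 0.48), and 0% of 1083 ORs were called (68 at an unadjusted p under 0.05, none by the likelihood ratio test).

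In the other 9 comparisons neither receptor passed the test. DHB, a bicyclic ketal of male urine, gave the largest estimate for Olfr140. Its shares were 2.54%, 1.65% and 2.55% after DHB and 3.41%, 3.05% and 5.50% in the controls, which did not overlap, but the change of -0.73 (SE 0.31, unadjusted p = 0.0312) had an adjusted p of 0.993, and 0.123 with the replicate number as a block. The change shrank to -0.43 without control replicate 3, which held 5.50%. Of the ORs tested, 0.564% were called there. For Olfr536 the largest estimate came with β-caryophyllene, a plant sesquiterpene, with 1.32%, 0.756% and 1.61% against 1.68%, 4.64% and 1.86%. These groups did not overlap either, but the change of -1.12 (SE 0.47, unadjusted p = 0.0338) had an adjusted p of 0.905 and shrank to -0.41 without control replicate 2.

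After CPD, both doses of MTMT, farnesene and 2,5-DMP both receptors overlapped their controls. After CPD, Olfr140 held 3.32%, 2.45% and 1.90% and Olfr536 held 1.74%, 2.09% and 2.46%, in both cases in the same order of libraries as the controls. After 10 mM MTMT, Olfr140 held 2.35%, 2.71% and 1.14% and Olfr536 held 1.87%, 2.61% and 1.41%. Replicate 3 of that group, the lowest for both, was the library led by Olfr541. After 100 μM MTMT, Olfr140 held 1.93%, 0.921% and 2.09% and Olfr536 held 2.26%, 2.19% and 2.37%. After farnesene, the alarm pheromone of aphids and a male mouse scent, Olfr140 held 2.59%, 1.13% and 2.48% and Olfr536 held 1.98%, 2.14% and 2.00%. After 2,5-DMP, a pyrazine of female mouse urine, Olfr140 held 2.61%, 1.26% and 1.92% and Olfr536 held 2.49%, 2.03% and 1.92%. Olfr536 thus stood above Olfr140 in replicate 2 of each of these 3 groups, where Olfr140 was low. It also did so in the other libraries of 100 μM MTMT and in replicates 2 and 3 of the shared controls. In replicate 3 of 2,5-DMP both were nearly equal (ratio of Olfr140 to Olfr536 0.996).

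The remaining estimates lay between -0.38 and 0.41 on the log2 scale, apart from that of -0.50 (SE 0.50) for Olfr536 at 1% SBT. That one was -0.18 without replicate 2 of 1% SBT and -1.22 without its replicate 3. After 100 μM MTMT they were -0.38 (SE 0.36) for Olfr140 and -0.06 (SE 0.30) for Olfr536, with 0.281% of ORs called. After 10 mM MTMT they were -0.09 (SE 0.50) and 0.41 (SE 0.42), but -0.40 and 0.0726 on library totals alone, and Olfr536 was at 0.0714 without replicate 2 of that odor. CPD gave 0.02 (SE 0.35) and 0.20 (SE 0.36), and 0.01% SBT gave -0.11 (SE 0.34) and 0.24 (SE 0.28). Olfr140 was at 0.08 (SE 0.38) after β-caryophyllene, and Olfr536, with 2.13%, 1.70% and 1.87% after DHB, was at 0.00336 (SE 0.27). The estimates for CPD, 0.01% SBT, β-caryophyllene (Olfr140) and DHB (Olfr536) each lay within their SE of 0. Farnesene gave 0.04 (SE 0.36) and -0.14 (SE 0.28), with 1.77% of ORs called, and 2,5-DMP gave -0.12 (SE 0.34) and -0.14 (SE 0.27), with 0.841% called. No OR (0%) was called by edgeR for CPD, 10 mM MTMT or β-caryophyllene. At an unadjusted p under 0.05 there were 40, 69 and 51 ORs in those comparisons, and DESeq2 called 1, 15 and 0.

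**Figure D3:**
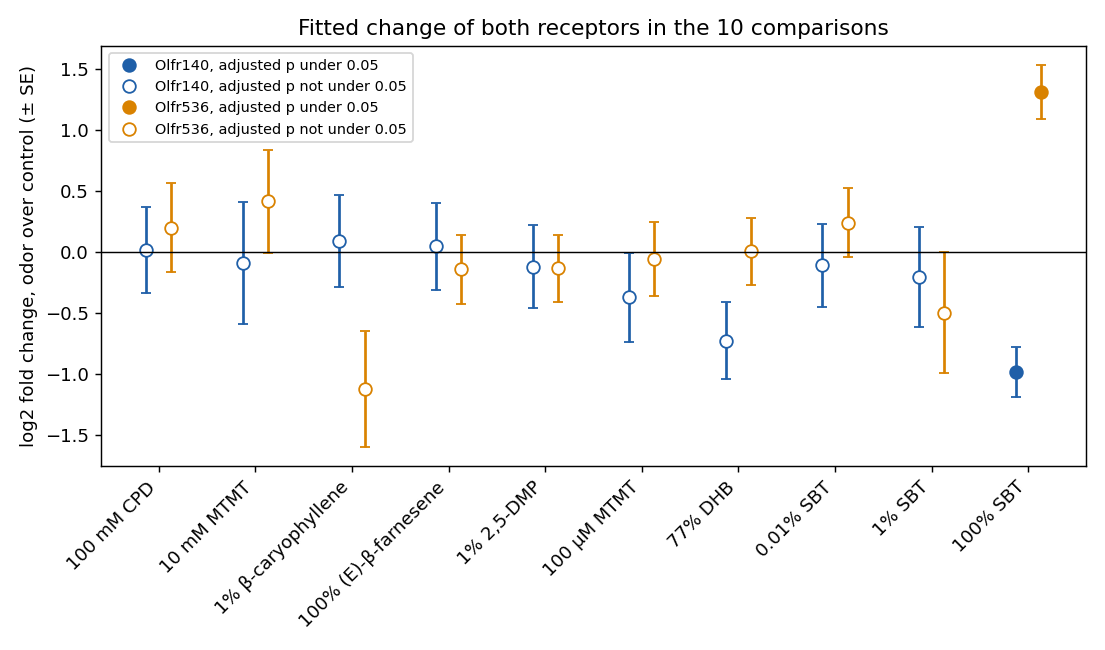
Fitted log2 fold change (odor over control, with SE as error bars) of Olfr140 in blue and Olfr536 in orange in the 10 comparisons of 3 odor and 3 control libraries. The only filled points, with an adjusted p under 0.05, are those of 100% SBT, at -0.99 and 1.31.

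Averaged over all odors, with experiment as a term, the change was -0.21 (SE 0.14, adjusted p = 0.661) for Olfr140 and 0.07 (SE 0.17, adjusted p = 0.946) for Olfr536. One of 1102 ORs (0.0907%) was called. Of 30 differences between same-numbered odor and control libraries, in which several odors share controls, Olfr140 was lower in 25 and Olfr536 in 18. These differences are of shares without TMM factors, and the count over all ORs was not made. On library totals alone the average change of Olfr140 was -0.35 (edgeR, adjusted p = 0.283). Whether the odor effects differed among the 10 comparisons was asked after the results had been seen. The F-test over 51 libraries gave an adjusted p of 0.00284 for Olfr536 and 0.859 for Olfr140, with 13.1% of ORs called, and for Olfr536 it rested on 100% SBT, since without that odor the adjusted p was 0.894.

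The ratio of Olfr140 to Olfr536 reads within a library does not depend on any scaling over ORs. It ranged from 0.299 to 9.07 with a median of 1.28, and was above 1 in 33 libraries and below 1 in 18. At 100% SBT it was 0.343, 0.478 and 0.299, the lowest mean of any group, against 1.52, 2.42 and 1.67 in the controls. The difference of the log2 ratio was -2.33, and the two-sided exact permutation test gave p = 0.1, the smallest that 3 against 3 libraries allow (adjusted p = 0.5 over 10 comparisons). DHB was the only other odor without overlap, with ratios of 0.970 to 1.36 against 1.48 to 3.06 and a difference of -0.71 (exact p = 0.1, adjusted p = 0.5). The β-caryophyllene libraries lay at the other end, at 3.09 to 9.07 after the odor and 1.45 to 3.13 in the controls, which overlapped.

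**Figure D4:**
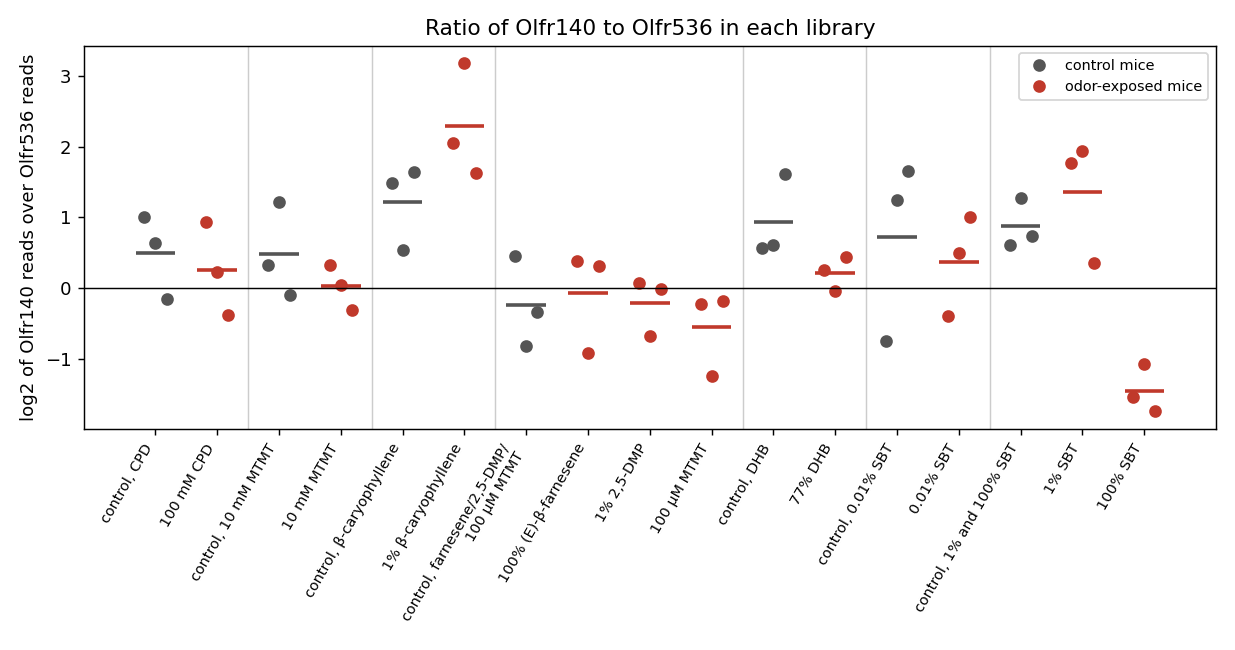
Log2 of the ratio of Olfr140 to Olfr536 reads in each of the 51 libraries, by group and in order of replicate number, with controls in gray, odor groups in red and group means as lines. The mean of 100% SBT is the lowest of the 17 groups and that of β-caryophyllene the highest, with ratios up to 9.07.

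Both genes lie in OR clusters, and the intact ORs within 250 kb were followed as a list, 19 beside Olfr140 and 15 beside Olfr536. Every one of these neighbours had a lower mean share than its member, which the choice of the members by level fixed in advance. Those of Olfr140 had mean shares of 0.00845% (Olfr1506) to 0.609% (Olfr1258), with a median of 0.109%. Those of Olfr536 had mean shares of 0.0535% (Olfr538) to 0.649% (Olfr531), with a median of 0.156%. Olfr541, which led 1 library of 10 mM MTMT, is among the neighbours of Olfr536.

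At 100% SBT, 8 of the 15 neighbours of Olfr536 were called higher, against 10.6% of all ORs, and none lower. They were Olfr533 (2.55, SE 0.30 on the log2 scale), Olfr535 (2.50, SE 0.36), Olfr46 (1.95, SE 0.35), Olfr531 (1.94, SE 0.31), Olfr539 (1.90, SE 0.28), Olfr61 (1.56, SE 0.45), Olfr60 (1.38, SE 0.30) and Olfr527 (1.12, SE 0.31). The median change of the 15 was 1.12, against -0.08 over all ORs, and 14 of them were above 0. The count was 5 on library totals alone and 6 to 8 when a library was left out. Of the near copies, Olfr533 went from 0.293% ± 0.12 to 1.29% ± 0.17 (SD, n = 3), whereas Olfr530, the closer of them, held 0.0743% ± 0.0190 and 0.068% ± 0.00378 (SD, n = 3; log2 fold change 0.27, adjusted p = 0.774). How many reads were divided among these copies was not tested.

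Around Olfr140 the picture differed. Of 19 neighbours, 2 were called lower by edgeR, against 0.762% of all ORs. They were Olfr1258 (-1.01, SE 0.27, adjusted p = 0.0272) and Olfr48 (-1.44, SE 0.43, adjusted p = 0.0455). With Olfr140 itself, around which the window was drawn, 3 of the 8 ORs called lower at 100% SBT lie there. Only Olfr1272 of the 19 was called higher (2.83, SE 0.45), against 10.6% of all ORs. None of the 7 ORs between Olfr1258 and Olfr140 passed the test. Of these, Olfr1260 to Olfr1264 had estimates of -0.53 to -0.85, whereas Olfr1259 was at 0.16 (SE 0.46) and Olfr1265 at 0.07 (SE 0.59). The median of the 19 was 0.07. The count of neighbours called lower was 5 with library totals, 0 with TMM factors over the ORs not called and 0 to 2 when a library was left out, so it depended on scale and library.

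In the other 9 odor comparisons 3 neighbours were called. Olfr1259, 1 of 19 near Olfr140, was called higher after farnesene (1.15, SE 0.24), where 1.77% of all ORs were called. Olfr46 (1.36, SE 0.27) and Olfr531 (1.23, SE 0.27), 2 of 15 near Olfr536, were called higher after DHB, where 0.564% of all ORs were called. In the contrast of 100% with 1% SBT, in which 7.15% of all ORs were called higher and 0.376% lower, Olfr533 (2.24), Olfr539 (1.76) and Olfr46 (1.44) were higher among the 15 near Olfr536, and among the 19 near Olfr140 Olfr1272 (3.93) and Olfr142 (1.47) were higher and Olfr1258 lower (-1.11). Among the 7 control groups, 2 neighbours of Olfr536 differed, Olfr531 with a fitted span of 2.08 and Olfr533 with 1.69, against 2.57% of all ORs. The F-test among the 10 odor effects, which called 13.1% of all ORs, called Olfr1259, Olfr1272 and Olfr142 near Olfr140, and Olfr46, Olfr531, Olfr533, Olfr535, Olfr539, Olfr541 and Olfr61 near Olfr536.

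**Figure D5:**
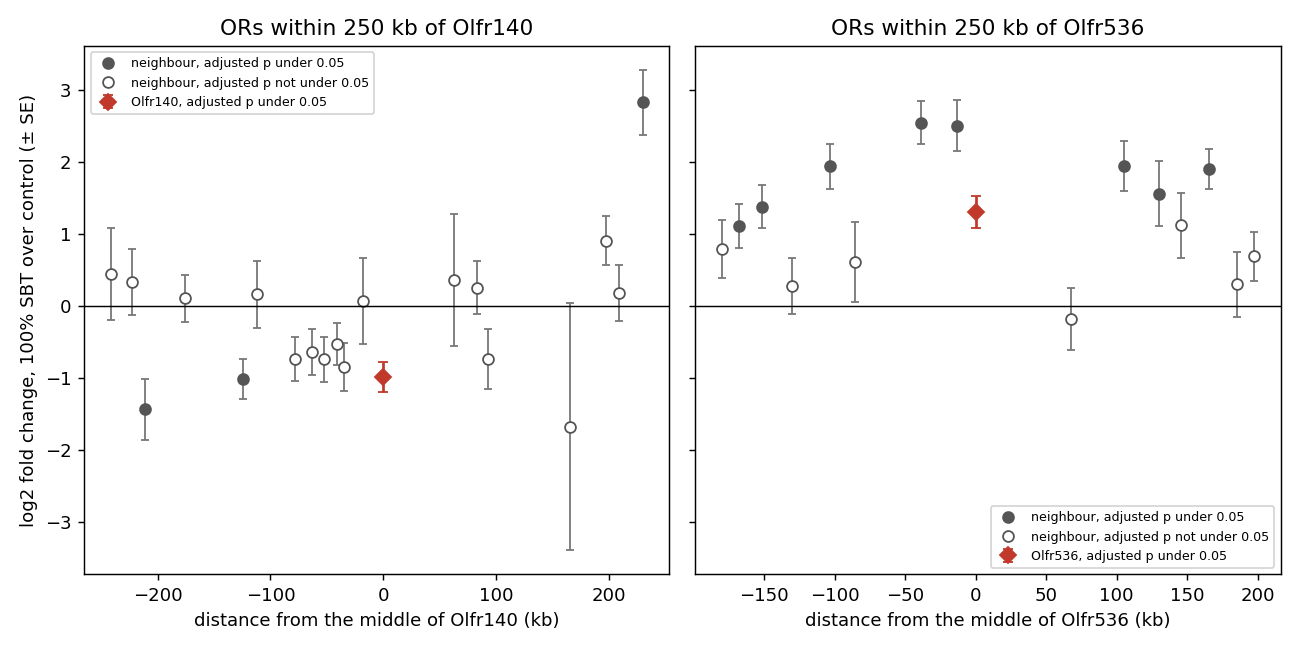
Log2 fold change at 100% SBT (with SE as error bars, 3 odor and 3 control libraries) of the ORs within 250 kb of Olfr140 (left) and Olfr536 (right) against the distance in kb from the middle of the member, positive toward higher coordinates. Filled points have an adjusted p under 0.05, which 8 of 15 neighbours of Olfr536 reach above 0, and the red diamond is the member itself.

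Among the 240 other ORs with a mean of at least 100 reads a library, those that kept the most constant ratio to Olfr140 over the 51 libraries were Olfr1018, Olfr518, Olfr749, Olfr597 and Olfr464, with SDs of the log2 ratio of 0.596 to 0.622. For Olfr536 they were Olfr727, Olfr1193, Olfr726, Olfr527 and Olfr43, with SDs of 0.425 to 0.504. The log2 shares themselves had SDs of 0.693 for Olfr140 and 0.518 for Olfr536. Ranked by Pearson correlation instead, Olfr642 (r = 0.767) and Olfr1458 (r = 0.620) came first for Olfr140. Of its list above, only Olfr1018 and Olfr749 then stayed among the top 5, whereas for Olfr536 only Olfr43 left the list. Olfr527 is a neighbour of Olfr536, and Olfr727 and Olfr726 lie on chromosome 14. The members themselves were unlike each other. The SD of their log2 ratio was 0.984, which ranked Olfr536 186th of 240 in likeness to Olfr140, and the Pearson correlation of their log2 shares was -0.306 over 51 libraries that share depth and experiment.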

How the data were processed

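OR tables of 10 comparisons, covering 51 pS6-IP-Seq libraries made from mucosa, were read. To make them, the authors mapped reads by STAR (GRCm38) and derived estimated counts per gene by RSEM, deposited as whole numbers for intact ORs alone. Strand was not stated, and reads were 50 or 75 bases. The authors' fold changes and p-values stand in the same tables and were not used. A further table with 6 sample columns matched no label and was not used. Groups came from the labels. Members and lists were chosen with earlier results of these data known: the members for their level, the 5 next ORs, any OR that led a library, the 5 ORs most like each member and the ORs within 250 kb.

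Each OR that reached 10 reads summed over its comparison was tested by the quasi-likelihood F-test of edgeR 4.0.16 under R 4.3.3 (scaling by TMM, group as the only term, Benjamini-Hochberg over all ORs tested, threshold 0.05). DESeq2 1.42.0, other scalings, filters, tests and left-out libraries served as alternatives. SciPy 1.17.1 gave exact permutation tests and Wilson intervals. On simulated data, the planted changes were larger than any odor-against-control estimate of either receptor. There the edgeR steps recovered 51.8% to 98.0% of the 193 to 200 changed ORs tested, with at most 6.36% wrong calls. Recovery of changes as small as those estimates was not simulated. Same-group libraries differed beyond counting noise (chi-square per degree of freedom of 5.22 to 28.0 over 51 pairs). By the study's description each group was 3 mice, with odor and diluent mice litter matched, so p-values measure the spread between mice. The labels do not tie replicate numbers to litters. Same-numbered odor and control libraries deviated together, with all correlations over 0.1, in 7 of 10 comparisons (not for 10 mM MTMT, 100 μM MTMT and 0.01% SBT). Their pairing comes from the replicate numbers of the labels. OR reads alone gave library totals of 27301 to 160001, without molecular identifiers, so intervals cover counting error only.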

Additional observations from a re-analysis of the deposited data

Results flagged for a closer look

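The response of Olfr536 differed between doses of SBT: the 100% libraries stood 1.83 above the 1% libraries on the log2 scale (edgeR, adjusted p = 0.0106), and this value is flagged because 2 groups under the same contrast differed by a test of the difference. The F-test of whether the 10 odor effects on Olfr536 differ gave an adjusted p of 0.00284. The effects spanned 2.43 on the log2 scale, against a median span of 1.67 over the ORs tested. That test was added after the results had been seen, and for Olfr536 it rested on 100% SBT.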

How the results depend on the processing

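Over 46 results and 534 alternative settings, 474 kept their direction and, where there was a threshold, their side of it. Another 53 reversed, all of estimates that did not pass the test. That side was partly fixed in advance, since the permutation tests of the ratio could not pass and shares and ranks had no threshold. Most of the other results did not pass the test under the main setting. At 100% SBT the call for Olfr536 held under every alternative, and that for Olfr140 was lost in the single fit of 51 libraries (-0.95, adjusted p = 0.0924). Leaving out a library gave -1.06 to -0.85 for Olfr140 and 1.14 to 1.45 for Olfr536. The replicate block gave 1.32 (adjusted p = 5.16e-06) for Olfr536 there, called 143 ORs in place of 119, and changed no call for either receptor in any comparison.

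Among the 7 control groups the span of Olfr140 was 1.56 (adjusted p = 0.00493) by the likelihood ratio test and 1.29 to 1.88 when a library was left out. The span of the odor effects on Olfr536 was 1.46 (adjusted p = 0.894) without 100% SBT. Olfr536 ranked 3 by mean share per kb.

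Estimates near 0 changed sign. For Olfr140 and CPD the change was -0.0162 with the replicate block, -0.0152 with the label prefix as a block, -0.117 on library totals and -0.118 on totals over the other ORs, and for Olfr140 and β-caryophyllene it was -0.0260 on the latter. For Olfr536 and DHB it was -0.00267 with the replicate block, -0.0142 with DESeq2, -0.0959 on library totals and -0.123 on totals over the other ORs. The average effect on Olfr536 was -0.0726 and -0.0839 on those totals and -0.0707 without the experiment of 1% and 100% SBT. The MTMT dose difference of Olfr140 was -0.0813 and -0.0814 on those totals. The cause of these reversals was not tested.

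When a library was left out, the change of Olfr140 ranged from -0.14 to 0.22 for CPD, -0.44 to 0.22 for 10 mM MTMT, -0.0884 to 0.29 for β-caryophyllene, -0.22 to 0.36 for farnesene, -0.47 to 0.20 for 2,5-DMP, -0.44 to 0.15 for 0.01% SBT, -0.35 to 0.23 between 1% and 0.01% SBT and -0.0749 to 0.57 between the MTMT doses. That of Olfr536 ranged from -0.12 to 0.0237 for 100 μM MTMT and -0.15 to 0.0903 for DHB. The log2 ratio of both receptors ranged from -0.57 to 0.0847 for CPD, -0.14 to 0.58 for farnesene, -0.27 to 0.37 for 2,5-DMP, -0.61 to 0.0295 for 100 μM MTMT and -1.08 to 0.12 for 0.01% SBT.

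Counts of ORs called moved by over 1.5 times in several comparisons. They ranged over the alternatives from 0 to 38 for 10 mM MTMT, 8 to 28 for farnesene, 7 to 17 for 2,5-DMP, 0 to 7 for 100 μM MTMT, 0 to 28 for 1% SBT, 19 to 64 among the control groups and 0 to 29 between the MTMT doses. Depth limits low ORs more than these receptors, which had at least 326 reads in every library.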
